A study of Medicago sativa with 12 samples.

Results

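The alfalfa gene models described here build very-long-chain fatty acids and turn fatty acids into the cutin, suberin and wax of the plant surface. They are the 113 gene models that the deposited table annotates to the KEGG pathways of fatty acid elongation (70 models) or of cutin, suberine and wax biosynthesis (43 models) and whose mean level over all libraries was at least 1 FPKM (fragments per kilobase of transcript, scaled to mapped fragments). No model was in both pathways. The table holds 164632 gene models, 540 of them annotated to either pathway, and 212 of these 540 had no count in any library. The members were chosen by their mean FPKM and by no comparison of groups, so the levels are a description. Just inside the threshold lay MS.gene83081 at 1.083 FPKM, MS.gene39342 at 1.10 and MS.gene035810 at 1.15, and just outside it lay MS.gene23514 at 0.921, MS.gene073923 at 0.917 and MS.gene67385 at 0.907.

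Leaf RNA of Medicago sativa L. cv. zhongmu 1#, a perennial forage legume, was sequenced in 12 libraries, 3 biological replicates for each of 4 treatments given in Hoagland nutrient solution. The 50 µM dose was the one chosen in soil culture, where plants stood in pots of vermiculite. The SM plants received 150 mM NaCl and 50 µM melatonin, the S plants 150 mM NaCl alone, the M plants 50 µM melatonin alone, and the CK plants nutrient solution alone. All 4 groups share the cultivar and carry no engineered change, and each library is a leaf extract with its mix of cells. In such bulk RNA, fewer cells of a type and less RNA per cell cannot be told apart. Estimated counts summed to between 45862158 and 57192229 per library, and the 113 models took between 0.0898% of them (S replicate 2) and 0.190% (M replicate 2). Values of a group are listed below in the order of replicates 1, 2 and 3.

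As background, chain elongation runs on the endoplasmic reticulum in cycles of 4 steps. A condensing enzyme, the 3-ketoacyl-CoA synthase (KCS), joins malonyl-CoA to an acyl-CoA and sets which chain lengths are made, and a ketoacyl reductase (KCR), a hydroxyacyl dehydratase (HCD) and an enoyl reductase (ECR) that all chains share complete the cycle. In the leaf epidermis the long chains become wax, either as alkanes through CER1 and CER3 or as alcohols and esters through fatty acyl-CoA reductases (FAR) and the wax ester synthase WSD1, while hydroxylated shorter chains become cutin. Salt limits the water a leaf can take up, and the cuticle is the barrier that holds its water.

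The comparisons ask what melatonin does without salt (M vs CK), what salt does alone (S vs CK) and with melatonin (SM vs CK), and what melatonin does under salt (SM vs S). A salt contrast sets the 6 libraries of S and SM against the 6 of CK and M. The estimated counts of 50931 gene models entered 1 edgeR fit with its quasi-likelihood test, and p of single models is adjusted over all of them after Benjamini and Hochberg. Models with a fold change above 2 or below 0.5 and an unadjusted p below 0.05, the study's definition, are called "past the thresholds", and "rose", "fell" and "called" are kept for an adjusted p below 0.05. Alfalfa carries 4 copies of each of its 8 chromosomes, named 1.1 to 8.4 in the table, and reads of near-identical copies can be split among models. Annotation sums, which add the counts of all models with the same description, do not depend on that split and are given beside single models. They had an edgeR fit of their own, with p adjusted over the 15402 sums tested, so the 2 kinds of adjusted p differ in what they adjust over.

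In the salt contrast 35 of the 113 models passed the thresholds, 13 higher and 22 lower with salt. That is 31.0% beside 16% of all models tested, of which 7.92% were higher and 8.12% lower. After adjustment 11 were called, 1 higher and 10 lower, beside 6.4% of all models (3.34% higher and 3.06% lower). In S vs CK, 29 passed the thresholds (10 higher, 19 lower in S) beside 14.2% of all models (7.79% higher and 6.41% lower), and 2 were called, both lower, beside 1.54% (0.997% higher and 0.542% lower). In SM vs CK, 22 passed (12 higher, 10 lower in SM) beside 11.6% (6.16% higher and 5.46% lower). In M vs CK 9 passed (7 higher, 2 lower in M) beside 4.82% (2.87% higher and 1.95% lower). In SM vs S, 6 passed (5 higher, 1 lower in SM) beside 4.77% (2.31% higher and 2.45% lower), a share of 5.31%. No member had an adjusted p below 0.05 in M vs CK, SM vs CK or SM vs S with edgeR, although 10, 23 and 7 of the 113 reached 0.05 without adjustment, beside 5.58%, 13.2% and 5.76% of all models. Of all models, 0.0118%, 0.342% and 0.0177% were called there. DESeq2 gave 5, 13 and 2 at an adjusted p below 0.05 in the same order, beside 1.71%, 7.53% and 1.63% of the models it adjusted, and limma on log2(FPKM + 1) gave 0, 3 and 0, the 3 beside 2.21%. Counts were present in all 12 libraries for 88 members. Without the members whose mean fell below 1 FPKM once 1 group or the salt or no-salt libraries were left out, 101 remained, of which 32 passed the thresholds in the salt contrast and 10 had an adjusted p below 0.05. Of these 101, 26 passed the thresholds in S vs CK and 1 had an adjusted p below 0.05.

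The lower calls were mostly condensing enzymes. Of 27 KCS models, 16 were lower and 2 higher past the thresholds in the salt contrast, 7 of the 16 with an adjusted p below 0.05. Of these 7, MS.gene31582 entered the set through its level without salt, so its fall is a description. The median log2 fold change of the 27 was -1.56 beside 0.03 over all models tested. In S vs CK 12 of the 27 were lower and 1 higher, and in SM vs CK 7 were lower and 1 higher. The 3 later enzymes of the cycle had median log2 fold changes of 0.36 for 7 KCR models, 0.53 for 3 HCD models and -0.25 for 4 ECR models in the salt contrast, and none of these 14 had an adjusted p below 0.05. The 10 condensing enzymes of the other, ELO type all had positive log2 fold changes, from 0.48 to 1.54, with 3 past the thresholds and none with an adjusted p below 0.05. Of these 10, MS.gene035810 had a mean of 0.672 FPKM in CK and 1.07 in M, below 1 over both. It entered the set through its level under salt, so its sign is a description.

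**Figure D1:**
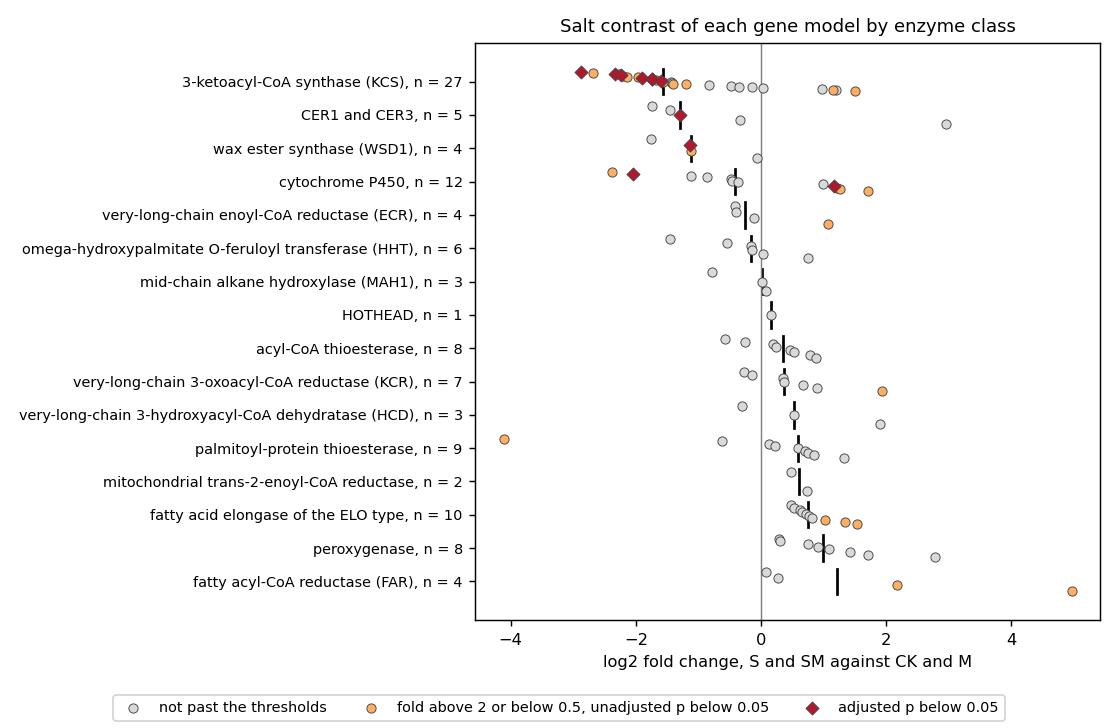
Each point is 1 of the 113 gene models, placed by its log2 fold change of S and SM against CK and M (horizontal axis) and by enzyme class (rows, ordered by median, black bar). Diamonds mark an adjusted p below 0.05 and orange points a fold change past the thresholds alone. The KCS row has 7 diamonds, all left of 0, and all 10 points of the ELO row lie right of 0. Among the diamonds MS.gene31582 entered the set through its level without salt. In the ELO row MS.gene035810 entered it through its level under salt.

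KCS11 was the condensing enzyme with the most members, 11 of the 16 models so described. Their summed level over the 16 models was 28.5, 30.2 and 43.6 FPKM in SM and 26.4, 16.4 and 58.1 in S, against 138, 200 and 78.8 in M and 67.5, 85.5 and 88.8 in CK. Every salt library lay below every library without salt, with S replicate 3 the nearest. The sum fell in the salt contrast by 1.72 on the log2 scale (SE 0.28, adjusted p = 0.00185, from edgeR), and its adjusted p stayed below 0.05 in 12 of 12 fits that left out 1 library. In S vs CK its log2 fold change was -1.34 (SE 0.39, adjusted p = 0.0491), below 0.05 in 1 of 6 such fits and at most 0.126, without S replicate 1. In SM vs CK it was -1.37 (SE 0.39, adjusted p = 0.0593).

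The 4 KCS11 copies on the 4 copies of chromosome 2 moved together. MS.gene64394 (chromosome 2.4, 35367817 to 35369352, minus strand) had 1.47, 2.34 and 1.86 FPKM in SM and 4.73, 1.52 and 2.19 in S, against 8.91, 11.03 and 8.202 in M and 5.802, 9.44 and 9.50 in CK. MS.gene66921 (chromosome 2.3, 36829700 to 36831235, minus strand) had 0.922, 1.68 and 1.88 FPKM in SM and 3.24, 1.89 and 2.56 in S, against 7.25, 8.22 and 5.02 in M and 5.43, 5.5965 and 5.14 in CK. In both models the libraries with salt did not overlap those without, which held for 9 of the 113 members in this direction and 1 in the other, beside 3.02% of all models tested in each. Their log2 fold changes in the salt contrast were -1.899 (SE 0.32, adjusted p = 0.00937) and -1.60 (SE 0.27, adjusted p = 0.00937). The other copies, MS.gene038869 on chromosome 2.1 and MS.gene83325 on chromosome 2.2, fell by 1.74 and 1.75 on the log2 scale, with adjusted p of 0.0167 and 0.0450. MS.gene83325 was singled out after its values were seen, to complete the 4 copies. Its groups overlapped, with 4 FPKM in S replicate 1 and 3.23 in CK replicate 1. MS.gene83325 kept an adjusted p below 0.05 in only 2 of 12 fits that left out 1 library (up to 0.101, without CK replicate 3), and MS.gene038869 in 12 of 12.

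The KCS11 models on chromosome 1 were less alike. MS.gene004888 (chromosome 1.4, 62713663 to 62715659, plus strand) had 1.48, 1.69 and 4.28 FPKM in SM and 1.904, 3.68 and 2.60 in S, against 26.6, 51.2 and 12.02 in M and 4.66, 4.77 and 9.21 in CK. Each M library exceeded each CK library, and each CK library exceeded each library with salt. Its log2 fold change was -2.33 in the salt contrast (SE 0.42, adjusted p = 0.0127) and 2.21 in M vs CK (SE 0.59, adjusted p = 0.730), so the salt contrast of this model draws in part on the level in M. Against CK alone it was -1.14 in S (adjusted p = 0.370) and -1.32 in SM, where it was past the thresholds with an adjusted p of 0.360. MS.gene85584 on chromosome 1.3 had 18.9, 27.8 and 0 FPKM in M, where replicate 3 stood apart, and MS.gene84849 on chromosome 1.2 had a log2 fold change of -0.15 in the salt contrast.

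**Figure D2:**
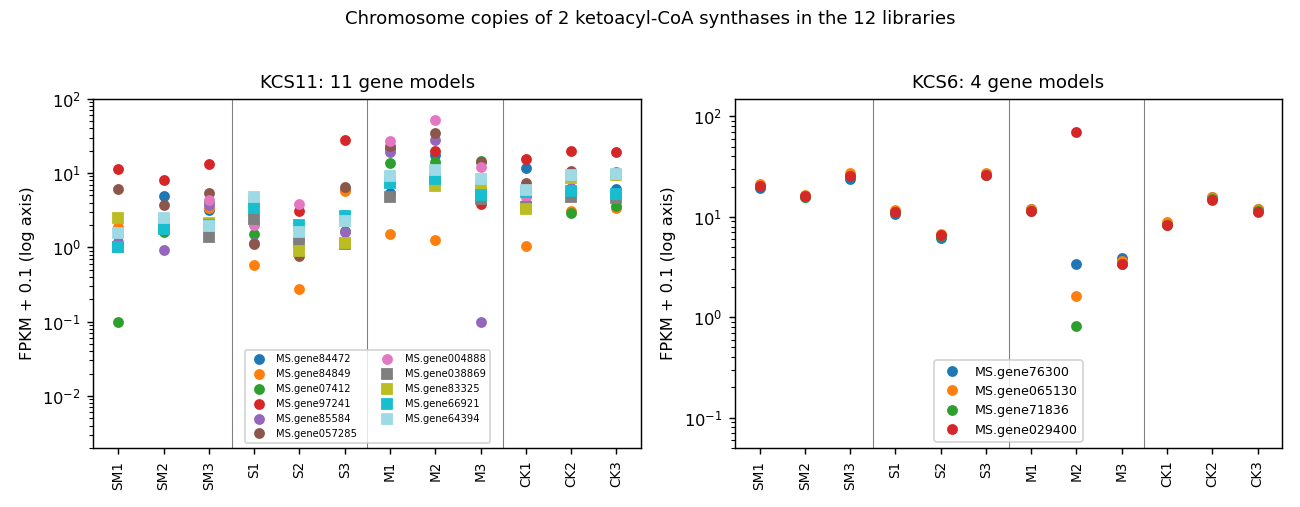
Level of each KCS11 model (left) and KCS6 model (right) in the 12 libraries, as FPKM + 0.1 on a log axis, in the order SM, S, M, CK, with circles for models on copies of chromosome 1 and squares for chromosome 2. The 4 squares of KCS11 lie lower with salt, except that MS.gene83325 had 4 FPKM in S replicate 1 and 3.23 in CK replicate 1. The 4 KCS6 copies coincide in every library but M replicate 2, where MS.gene029400 reached 69.3 FPKM.

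KCS12 had the lowest levels under salt alone. Summed over 20 models it reached 33.2, 25.7 and 65.9 FPKM in SM and 4.55, 29.1 and 5.93 in S, against 97.2, 96.04 and 39.7 in M and 77.1, 140 and 164 in CK. The S libraries lay below every CK and M library, S replicate 2 less far than the other two. The SM libraries lay below every CK library and overlapped both S and M. The sum fell in the salt contrast by 2.10 on the log2 scale (SE 0.49, adjusted p = 0.0111) and in S vs CK by 3.29 (SE 0.72, adjusted p = 0.0150). In SM vs CK its log2 fold change was -1.67 (SE 0.68, adjusted p = 0.170) and in SM vs S 1.62 (SE 0.68, adjusted p = 0.525). The call in S vs CK was kept in 5 of 6 fits without 1 library (0.0547 without S replicate 3).

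MS.gene31582 (chromosome 2.1, 7261596 to 7262996, plus strand) had 0.876, 1.06 and 1.97 FPKM in SM and 0.214, 0.980 and 0.182 in S, against 3.36, 6.06 and 2.65 in M and 4.46, 10.03 and 11.3 in CK. All 6 libraries with salt lay below all 6 without. It fell in S vs CK by 4.17 on the log2 scale (SE 0.77, adjusted p = 0.0339) and in the salt contrast by 2.88 (SE 0.52, adjusted p = 0.0128). Its mean was 0.459 FPKM in S and 1.30 in SM, below 1 over both groups. The model thus entered the set through its level without salt, so its fall is a description and no support. The first call held in 2 of 6 fits without 1 library, with adjusted p up to 0.0993 without CK replicate 3, and the second in 12 of 12. MS.gene31182 (7234155 to 7235555) and MS.gene31183 (7271693 to 7273093) lie on either side of it on the same chromosome copy, and in S vs CK they had log2 fold changes of -3.42 and -3.39, past the thresholds with adjusted p of 0.104 for both.

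MS.gene30928, the most abundant KCS12 model (chromosome 2.2, 5741882 to 5743282, plus strand), had 10.6, 9.29 and 36.0 FPKM in SM and 1.54, 7.79 and 1.26 in S, against 45.1, 37.4 and 14.6 in M and 32.2, 47.2 and 64.3 in CK. Each SM library exceeded each S library, which was so for 7 of the 113 models, beside 6.65% of all models tested, while 6 were lower in every SM library, beside 5.54%. Its log2 fold change in SM vs S was 2.36 (SE 0.80, adjusted p = 0.839), the one KCS model past the thresholds there. It fell in the salt contrast by 2.24 (SE 0.56, adjusted p = 0.0442), a call that held in 2 of 12 fits without 1 library (up to 0.0944, without SM replicate 1). The test of whether melatonin acted differently with and without salt gave it a log2 difference of 2.97 with an adjusted p of 0.744.

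KCS10, KCS4 and KCS6 gave no call. KCS10, known in Arabidopsis as FIDDLEHEAD, an epidermal enzyme, had summed levels of 28.6, 15.4 and 28.3 FPKM in SM and 15.1, 3.38 and 34.8 in S, against 52.5, 51.0 and 36.2 in M and 37.0, 56.2 and 64.8 in CK. The libraries with salt again lay below those without, with a log2 fold change of the sum of -1.29 (SE 0.43, adjusted p = 0.0528). KCS6, the main condensing enzyme of cuticular wax in Arabidopsis, had 82.3, 64.0 and 102 FPKM in SM and 45.5, 25.6 and 107 in S, against 46.4, 75.3 and 14.2 in M and 38.2, 61.2 and 46.4 in CK, with a log2 fold change of 0.57 (SE 0.39, adjusted p = 0.333). KCS4 had a log2 fold change of 0.13 (SE 0.21, adjusted p = 0.716), although 1 of its 2 models, MS.gene003741, was higher past the thresholds (1.502) and the other, MS.gene23269, was not (-0.36).

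The 4 KCS6 copies, 1 on each copy of chromosome 1, had near-equal levels in every library but 1. In M replicate 1 they had 11.8, 11.9, 11.3 and 11.3 FPKM, and in M replicate 2 they had 3.32, 1.51, 0.719 and 69.3. The sum of all 8 models described as KCS6 was 75.3 FPKM in that library, within the range of the other 11 libraries, while MS.gene029400 alone had a log2 fold change of 1.20 in M vs CK and the other 3 copies had -0.96, -1.12 and -1.19.

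**Figure D3:**
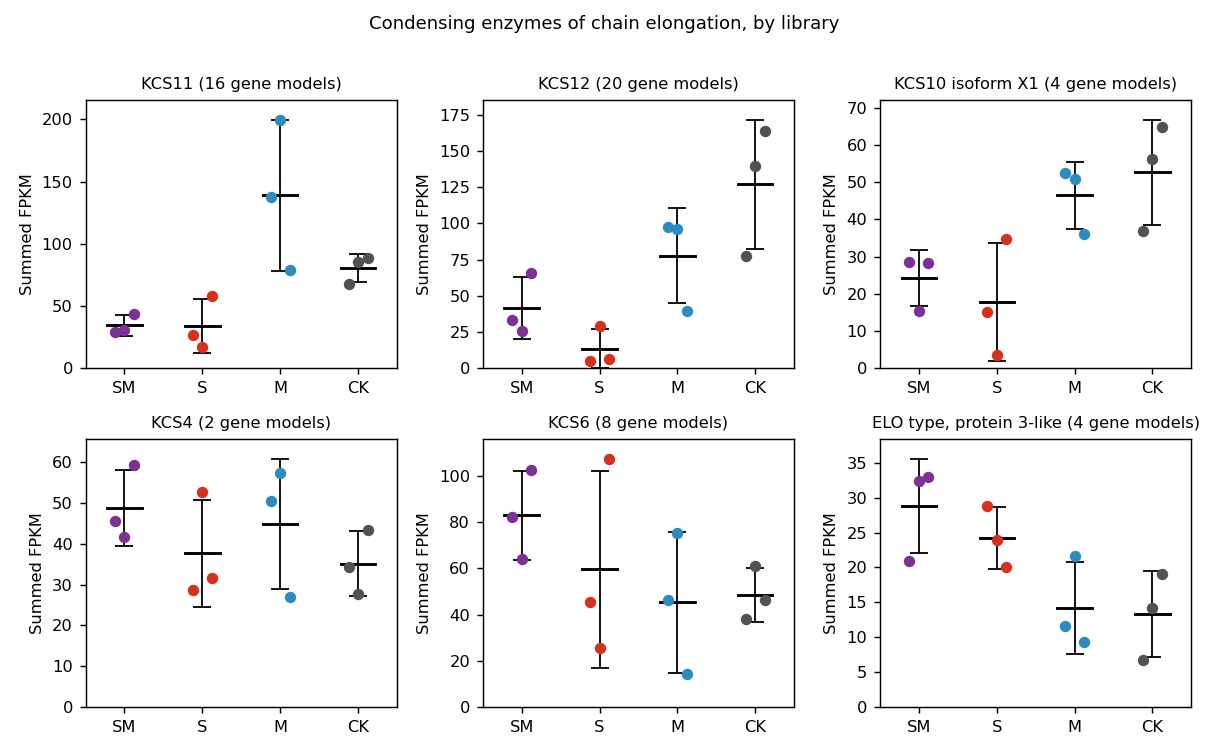
FPKM summed over the gene models that share a description, for 5 KCS enzymes and 1 ELO-type enzyme, in SM, S, M and CK. Points are the 3 libraries of a group, bars the mean and SD (lower arm stopped at 0). KCS11, KCS12 and KCS10 lie lower in SM and S than in CK, and the ELO-type enzyme lies higher.

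The ELO-type condensing enzymes, relatives of the elongases that yeast and animals use, went the other way. The 4 models described as elongation of fatty acids protein 3-like, 1 on each copy of chromosome 8, summed to 21.0, 32.4 and 33.0 FPKM in SM and 28.8, 23.9 and 19.99 in S, against 11.6, 21.7 and 9.26 in M and 6.73, 14.2 and 19.0 in CK. M replicate 2 was the one library without salt inside the range of those with salt. The sum rose in the salt contrast by 0.92 on the log2 scale (SE 0.27, adjusted p = 0.0312), a call kept in 6 of 12 fits without 1 library (up to 0.0688, without M replicate 1). The other 6 members, described after the slime mould protein DDB_G0272012, belong to a sum of 12 models with a log2 fold change of 0.62 (SE 0.34, adjusted p = 0.212). The most abundant of them, MS.gene064539, had 13.5, 8.18 and 9.56 FPKM in SM and 17.4, 6.02 and 24.6 in S, against 14.4, 7.07 and 7.36 in M and 6.77, 14.0 and 7.18 in CK, with overlap between all groups.

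The enzymes of the later steps gave no call, singly or as sums. The sum of 6 KCR1 models averaged 40.7 ± 5.07 FPKM in SM, 41.0 ± 11.9 in S, 29.9 ± 7.90 in M and 31.4 ± 5.35 in CK (SD, n = 3 each), and its log2 fold change was 0.39 in the salt contrast (SE 0.17, adjusted p = 0.127). The sum of 4 ECR models averaged 32.7 ± 0.978 FPKM in SM, 31.2 ± 8.66 in S, 35.5 ± 9.85 in M and 35.5 ± 2.95 in CK, and its log2 fold change was -0.18 (SE 0.16, adjusted p = 0.445). The dehydratase PASTICCINO 2A had a log2 fold change of 0.02 (SE 0.24). Single copies differed from their sum. MS.gene99404, the ECR copy on chromosome 5.1, had 9.9999, 9.60 and 10.2 FPKM in SM and 4.80, 1.21 and 3.84 in S, against 2.08, 3.21 and 3.01 in M and 2.46, 2.15 and 3.66 in CK. Each SM library was above every other library, and the model was past the thresholds in SM vs S (1.55, SE 0.51, adjusted p = 0.839) and SM vs CK (1.85, SE 0.51, adjusted p = 0.155). MS.gene067057, a KCR1 copy on chromosome 3.4, was the one member higher in every library with salt than in every library without, at 4.44 to 7.99 FPKM in SM and 4.45 to 7.31 in S, against 1.01 to 3.105 in M and 0.139 to 1.91 in CK. Its log2 fold change in the salt contrast was 1.93 with an adjusted p of 0.0729.

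Palmitoyl-protein thioesterase 1, which in animals takes palmitate off proteins, was the most abundant annotation of the set and was higher with melatonin alone, salt alone and both than in CK. Its 10 models summed to 557, 148 and 375 FPKM in SM, 303, 186 and 258 in S and 352, 351 and 405 in M, against 140, 98.3 and 83.9 in CK. Each library of the 3 treated groups exceeded each CK library. The sum rose in SM vs CK by 1.69 on the log2 scale (SE 0.42, adjusted p = 0.0374), a call kept in 1 of 6 fits without 1 library (up to 0.130, without CK replicate 3). It had log2 fold changes of 1.75 in M vs CK (SE 0.42, adjusted p = 0.422) and 1.19 in S vs CK (SE 0.42, adjusted p = 0.0873). These 3 comparisons share the CK libraries.

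The level came from a cluster of models on the copies of chromosome 5. MS.gene09748 (chromosome 5.4, 6643484 to 6647645, plus strand) had 157, 48.9 and 105.7 FPKM in SM, 127, 74.0 and 89.8 in S and 110, 111 and 125 in M, against 41.1, 26.2 and 35.0 in CK, and it was past the thresholds in each comparison with CK (1.61, 1.54 and 1.75 on the log2 scale for SM, S and M). MS.gene21215 on chromosome 5.1 had 192, 25.1 and 133 FPKM in SM, 87.1, 63.6 and 66.6 in S and 112, 111 and 122 in M, against 32.7, 23.2 and 25.2 in CK, where SM replicate 2 overlapped CK. MS.gene09750, the next model on chromosome 5.4 (6656899 to 6661060), was at 0 in S replicates 1 and 2 and in CK replicate 3 and at 15.9 to 127 FPKM elsewhere. The 3 models on chromosome 7 had levels of 0.652 to 15.3 FPKM and none was past the thresholds in M vs CK or S vs CK. In SM vs CK 1 of them, MS.gene54514 on chromosome 7.4, was lower past the thresholds, with 1.05, 0.652 and 1.26 FPKM in SM against 2.02, 4.46 and 1.65 in CK (-1.47, SE 0.56, adjusted p = 0.300).

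The acyl-CoA thioesterase orthology (K01068) holds 8 members whose descriptions say something else, 7 of them uncharacterized proteins and 1 a beta-amylase. The 2 members described as LOC25500882 were past the thresholds in M vs CK. MS.gene069197, on an unplaced contig, had 9.35, 12.3 and 12.9 FPKM in M against 4.51, 2.03 and 3.57 in CK, so the log2 fold change was 1.75 (SE 0.50, adjusted p = 0.770), with 3.82, 7.10 and 8.21 in SM and 4.81, 4.41 and 3.19 in S. Beta-amylase 7, a single model, had a sum that fell in the salt contrast by 0.64 (SE 0.18, adjusted p = 0.0297, kept in 5 of 12 fits without 1 library and at most 0.0789, without M replicate 2), while MS.gene52251, the same model tested among single models, had an adjusted p of 0.151. The 2 members annotated as mitochondrial trans-2-enoyl-CoA reductases stayed between 0 and 3.33 FPKM and were not past the thresholds in any comparison.

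**Figure D4:**
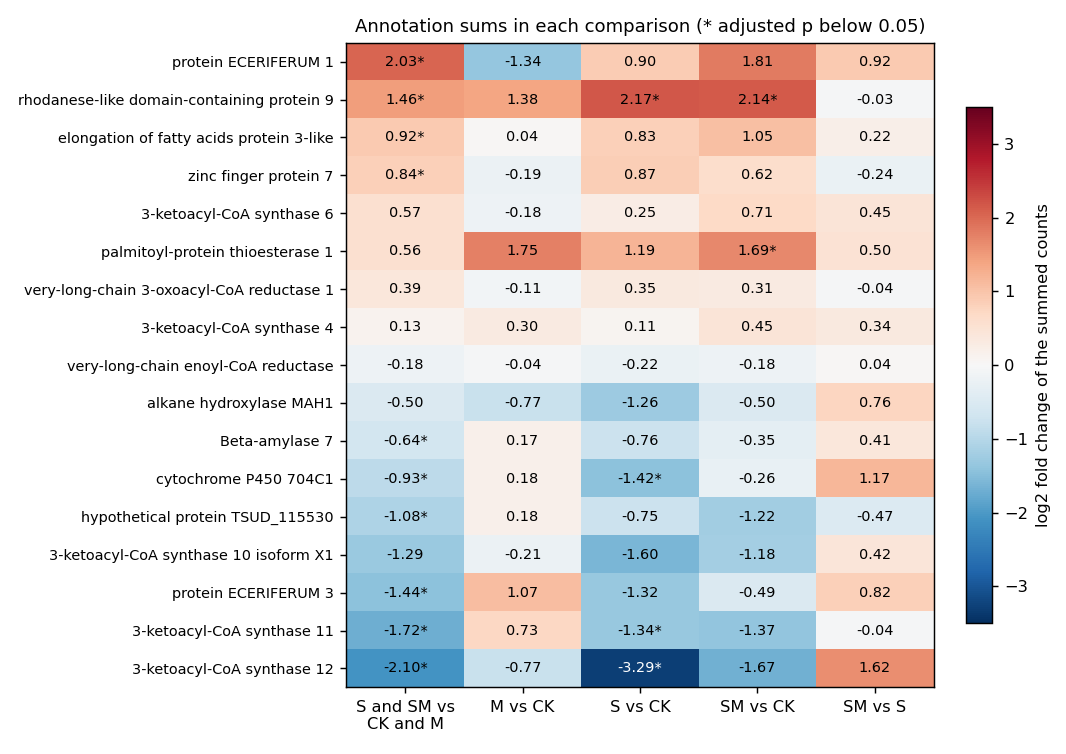
Log2 fold change of summed counts for 17 annotations (rows) in the salt contrast and the 4 comparisons (columns), red above 0 and blue below, with an asterisk for an adjusted p below 0.05. KCS12 and KCS11 are at the bottom with -2.10 and -1.72 in the salt contrast, and ECERIFERUM 1, whose value is a description, is at the top with 2.03.

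Among wax enzymes, CER3 fell with salt. CER3, which works with CER1 in Arabidopsis to turn very-long-chain acyl groups into alkanes, had a sum over 4 models of 8.49, 12.8 and 17.1 FPKM in SM and 7.07, 5.02 and 9.12 in S, against 38.9, 62.4 and 12.9 in M and 22.5, 12.7 and 16.4 in CK. The S libraries lay below all CK and M libraries, while SM overlapped both. The sum fell in the salt contrast by 1.44 (SE 0.33, adjusted p = 0.0103) and its adjusted p stayed below 0.05 in 12 of 12 fits without 1 library. Its log2 fold changes against CK were -1.32 in S (adjusted p = 0.0877), -0.49 in SM (adjusted p = 0.573) and 1.07 in M (adjusted p = 0.677). The copy MS.gene57954 on chromosome 8.4 had 4.41, 4.23 and 3.97 FPKM in SM and 3.004, 2.29 and 1.49 in S, against 9.69, 17.0 and 5.79 in M and 6.26, 4.54 and 6.23 in CK, and fell by 1.30 (SE 0.28, adjusted p = 0.0253, kept in 8 of 12 fits without 1 library and at most 0.0598, without CK replicate 3).

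CER1 was scarce. Only MS.gene39342 on chromosome 8.2 reached a mean of 1 FPKM, with 1.87, 1.76 and 4.31 in SM and 0.760, 1.72 and 1.35 in S, against 0.577, 0 and 0 in M and 0.895, 0 and 0 in CK. It entered the set through its level under salt, so its difference, and that of the sum that holds it, is a description and no support. The sum of all 13 CER1 models was 4.10, 2.60 and 8.40 FPKM in SM and 1.87, 2.82 and 3.17 in S, against 1.48, 0.374 and 0.0784 in M and 1.95, 2.76 and 1.997 in CK. Its log2 fold change was 2.03 in the salt contrast and 0.90 in S vs CK, where the libraries overlapped. The M libraries were the lowest, with a log2 fold change of -1.34 in M vs CK.

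The wax ester synthase annotation was lower with salt as a sum. The 4 models described as hypothetical protein TSUD_115530, which the table assigns to the orthology of WSD1 (wax ester synthase and diacylglycerol acyltransferase), had sums of 32.8, 32.6 and 54.1 FPKM in SM and 69.9, 52.0 and 40.7 in S, against 93.9, 132 and 84.4 in M and 126, 38.2 and 104 in CK. CK replicate 2 was the one library without salt inside the range of those with salt. The sum fell in the salt contrast by 1.08 (SE 0.28, adjusted p = 0.0176), below 0.05 in 12 of 12 fits without 1 library. MS.gene40546 on chromosome 5.2 had 10.46, 11.1 and 15.7 FPKM in SM and 19.4, 15.5 and 13.7 in S, against 26.3, 48.3 and 25.5 in M and 42.3, 18.0 and 30.4 in CK, and fell by 1.13 (SE 0.26, adjusted p = 0.0310, kept in 5 of 12 fits without 1 library and at most 0.0706, without SM replicate 2).

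Of 64 models with the orthology of alcohol-forming fatty acyl-CoA reductases, 4 were members, and 3 of these are described as rhodanese-like domain-containing protein 9. That annotation summed to 83.9, 59.2 and 39.4 FPKM in SM and 72.4, 43.9 and 68.2 in S, with 24.4, 13.8 and 64.7 in M, against 16.5, 14.2 and 11.005 in CK. Every salt library exceeded every CK library, and M replicate 3 stood with the salt libraries. The sum rose in S vs CK by 2.17 (SE 0.57, adjusted p = 0.0325), in SM vs CK by 2.14 (SE 0.57, adjusted p = 0.0470) and in the salt contrast by 1.46 (SE 0.39, adjusted p = 0.0222), calls kept in 1 of 6, 0 of 6 and 9 of 12 fits without 1 library (up to 0.110, 0.154 and 0.0559, each without CK replicate 3). MS.gene017962 on chromosome 7.1 had 39.0, 41.5 and 19.7 FPKM in SM and 53.1, 13.4 and 24.1 in S, with 7.05, 0.308 and 34.8 in M, against 5.28, 2.46 and 2.39 in CK. MS.gene072382 on chromosome 7.4 had 3 counts or fewer in each CK library and was at least 269-fold higher in S, 151-fold in SM and 110-fold in M, taken against 3 counts in each CK library, with 0.0646 FPKM in SM replicate 2 and 0 in M replicate 1. The fourth, MS.gene54152, described as a gland-specific fatty acyl-CoA reductase, had a log2 fold change of 0.08 in the salt contrast.

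**Figure D5:**
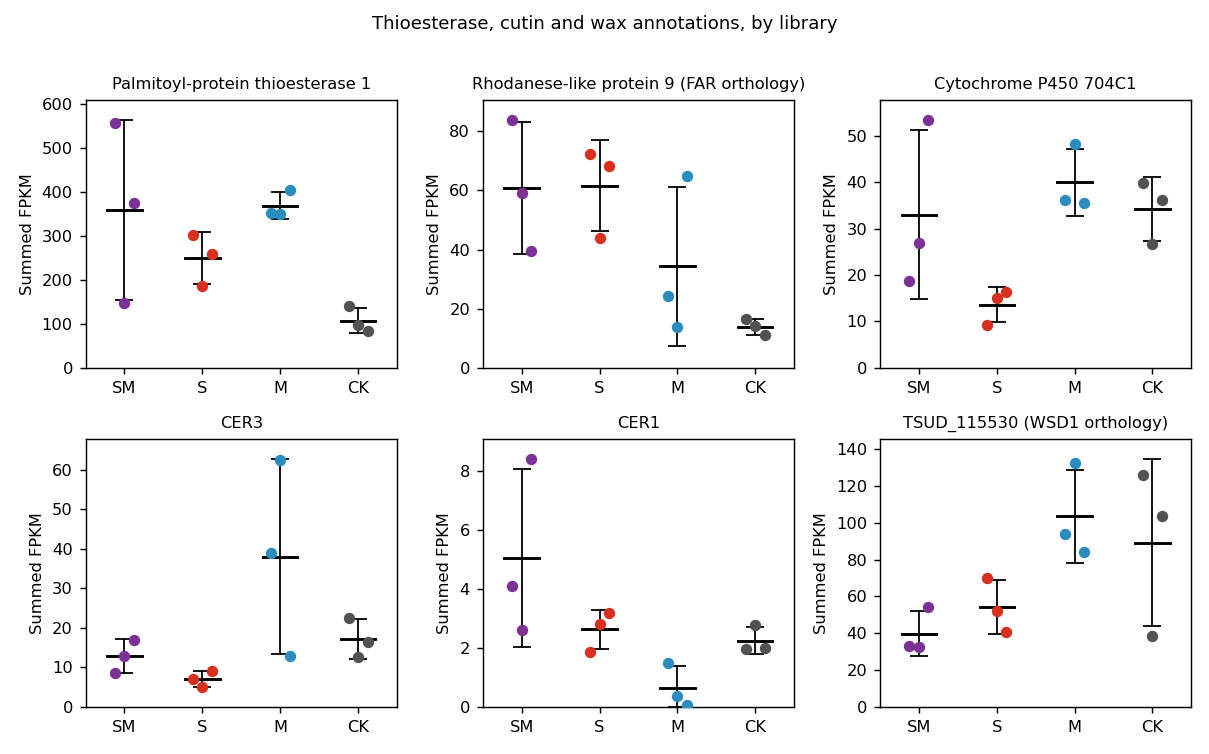
Summed FPKM of 6 thioesterase, cutin and wax annotations in SM, S, M and CK, points for the 3 libraries of a group and bars for mean and SD (lower arm stopped at 0). Palmitoyl-protein thioesterase 1 is at 83.9 to 140 in CK and at 148 or more in every treated library, and CYP704C1 is lowest in S.

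MAH1, which oxidises alkanes to secondary alcohols and ketones in Arabidopsis stems, had 3 members on copies of chromosome 6, 2 of them lower past the thresholds against CK with melatonin alone and with salt alone. MS.gene82811 had 3.77, 3.05 and 2.81 FPKM in M against 10.03, 11.3 and 18.6 in CK, for which the log2 fold change was -2.06 (SE 0.62, adjusted p = 0.770), and MS.gene032641 had 4.57, 3.74 and 2.92 in M against 10.1, 10.9 and 15.7 in CK. Under salt MS.gene82811 had 2.77, 13.0 and 9.83 FPKM in SM against 1.96, 7.68 and 5.19 in S, which overlapped (log2 fold change 0.74). In S vs CK the log2 fold changes were -1.38 for MS.gene82811, -1.29 for MS.gene032641 and -1.01 for the third copy, with adjusted p of 0.298, 0.248 and 0.472, and each S library lay below each CK library in all 3. The melatonin by salt interaction was 2.80 for MS.gene82811 and 2.74 for MS.gene032641, both past the thresholds but with adjusted p of 0.712 and 0.653. Over all members 9 models passed the thresholds in this interaction, 6 higher and 3 lower, beside 5.99% of all models tested (2.6% higher and 3.39% lower), and none had an adjusted p below 0.05 with edgeR, beside 0.0275%, against 2 with DESeq2, beside 1.93%. The third copy, MS.gene053073, had 17.0, 17.3 and 19.2 FPKM in M against 12.5, 12.8 and 23.2 in CK.

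Some cytochromes P450 hydroxylate fatty acid chains, a step of cutin and suberin monomer synthesis. The sum of 22 models described as CYP704C1 was 18.7, 26.9 and 53.5 FPKM in SM and 9.33, 15.1 and 16.4 in S, against 36.2, 48.3 and 35.5 in M and 39.8, 26.6 and 36.3 in CK. Each S library lay below each library of the other 3 groups. The sum fell in S vs CK by 1.42 (SE 0.32, adjusted p = 0.0175, kept in 4 of 6 fits without 1 library and at most 0.0565, without CK replicate 1) and in the salt contrast by 0.93 (SE 0.23, adjusted p = 0.0141, kept in 12 of 12). In SM vs S its log2 fold change was 1.17 (SE 0.32, adjusted p = 0.354), and in SM vs CK it was -0.26 (SE 0.32).

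MS.gene87819 (chromosome 8.4, 61726608 to 61730975, plus strand) was the most abundant of these models. It had 4.14, 9.91 and 3.58 FPKM in SM and 3.1001, 2.63 and 4.32 in S, against 21.2, 27.8 and 17.5 in M and 18.3, 11.4 and 17.9 in CK, with no overlap between libraries with and without salt. It fell by 2.04 in the salt contrast (SE 0.31, adjusted p = 0.00597, kept in 12 of 12 fits without 1 library) and by 2.201 in S vs CK (SE 0.43, adjusted p = 0.0411, kept in 0 of 6, at 0.0783 to 0.117, the highest without CK replicate 3). MS.gene070987, another model of this description on chromosome 1.4, had no count in the 3 S libraries and 2.96, 0.247 and 10.2 FPKM in SM, at least 105.9-fold higher taken against 3 counts in each S library. It reached only 0.0521 to 0.577 FPKM in CK and entered the set through SM, so this is a description.

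Cytochrome P450 94B3, known in Arabidopsis for hydroxylating the hormone jasmonoyl-isoleucine, had 4 members, 1 on each copy of chromosome 7, all past the thresholds in the salt contrast with log2 fold changes of 1.16 to 1.71. MS.gene055723 had 5.09, 3.81 and 3.65 FPKM in SM and 5.81, 7.79 and 10.1 in S, against 3.22, 2.07 and 1.37 in M and 3.84, 3.44 and 2.03 in CK. It was the one member called higher in the salt contrast (1.16, SE 0.30, adjusted p = 0.0499), a call kept in 0 of 12 fits without 1 library (0.0524 to 0.110, the highest without M replicate 2), and it was singled out after its values were seen. The sum of all 11 models had a log2 fold change of 0.57 (SE 0.35, adjusted p = 0.276). In SM vs S, MS.gene013919 was the one member lower past the thresholds, with 3.07, 1.96 and 4.91 FPKM in SM against 9.19, 6.48 and 7.51 in S (-1.26, SE 0.51, adjusted p = 0.848).

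The cytochromes P450 best known from cutin and suberin synthesis in Arabidopsis were scarcely detected. None of the 6 models with the orthology of CYP86A8, of the 9 of CYP86A1 or of the 29 of CYP86B1 reached a mean of 1 FPKM, and the highest means were 0.302, 0.0123 and 0.0396. HOTHEAD, an oxidoreductase that in Arabidopsis is needed for the diacids of cutin, had 1 member, MS.gene020251, at 2.33, 4.25 and 2.17 FPKM in SM and 1.42, 0.850 and 2.75 in S, against 1.11, 1.91 and 1.19 in M and 1.64, 5.72 and 1.35 in CK. The SM libraries lay above those of M, and all other pairs of groups overlapped.

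The acyltransferases that attach ferulate or caffeate to hydroxylated chains and alcohols of suberin, HHT and its relatives, had 6 members at low level. Their log2 fold changes in the salt contrast ran from -1.46 to 0.75 and none was past the thresholds. Zinc finger protein 7 has 1 model in the HHT orthology, and the sum of all 4 so described rose in the salt contrast by 0.84 (SE 0.25, adjusted p = 0.0316, kept in 5 of 12 fits without 1 library and at most 0.0663, without CK replicate 2), with its 1 member MS.gene026456 at 11.3, 6.96 and 9.04 FPKM in SM and 9.69, 4.49 and 9.06 in S, against 6.72, 7.44 and 4.26 in M and 5.03, 3.03 and 4.78 in CK. All 8 peroxygenase models, caleosins that oxidise unsaturated fatty acids, had positive log2 fold changes in the salt contrast (0.29 to 2.77), and none passed the thresholds. MS.gene026544, at the upper end of that range, had a mean of 0.650 FPKM in CK and 0.249 in M. MS.gene83081 had 0.212 and 1.22. Both entered the set through their level under salt, so their sign is a description. The most abundant peroxygenase model, MS.gene98959, had 21.6, 7.76 and 14.7 FPKM in SM and 7.98, 18.6 and 21.1 in S, against 13.1, 9.68 and 14.3 in M and 8.90, 16.7 and 13.1 in CK.

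Across the 34 annotations of the members, 10 sums were called in the salt contrast, 4 higher and 6 lower, beside 22.8% of all 15402 sums tested (10.9% higher and 11.9% lower). The 4 include the CER1 sum, whose 1 member entered through its level under salt. In S vs CK 4 were called (1 higher, 3 lower) beside 12.2% (6.52% higher and 5.72% lower). SM vs CK gave 2 calls, both upward, beside 7.31% (4.04% higher, 3.27% lower). None was called in M vs CK or SM vs S, beside 0% of all sums in both, although 4 and 2 reached 0.05 without adjustment, beside 7.17% and 9.01% of all sums.

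Outside both pathways, cuticle genes named by their descriptions counted 271 models, 64 of them tested. In the salt contrast 3 of the 64 were higher and 6 lower past the thresholds, and 3 had an adjusted p below 0.05. These are 4.69%, 9.38% and 4.69% of the 64, near the 7.92%, 8.12% and 6.4% of all models. The 3 called were the transporter ABCG11, which exports cuticular lipids in Arabidopsis (MS.gene042816, 34.7 FPKM in SM and 29.4 in S against 14.5 in M and 17.8 in CK, log2 fold change 1.04), and 2 parts of acetyl-CoA carboxylase, which makes malonyl-CoA. Of the carboxylase models MS.gene52592, a biotin carrier subunit, rose by 0.88 and MS.gene022510 fell by 1.899. In M vs CK 4 were higher (6.25%, beside 2.87% of all models) and 0 lower past the thresholds, in SM vs S 0 of 64, and no model had an adjusted p below 0.05 in either. The CER2 models MS.gene013088 and MS.gene37919 were higher past the thresholds in the salt contrast (4.84 and 2.74), with adjusted p of 0.129 and 0.224.

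Mesophyll markers moved with salt as well. Of 120 mesophyll models (chlorophyll a-b binding proteins and the small chain of ribulose bisphosphate carboxylase) 81 were tested. Past the thresholds in the salt contrast, 58 were higher and 4 lower, beside 7.92% and 8.12% of all models. Calls in either direction numbered 39 among these 81, beside 6.4% of all models. The summed mesophyll level was 87029 to 96945 FPKM in SM and 79785 to 96378 in S, against 43074 to 97930 in M and 59318 to 93181 in CK. Of 72 epidermal models 8 were tested, 7 of them epidermal patterning factor-like peptides, none was past the thresholds in the salt contrast, and the sum was 40.1 to 54.6 FPKM in SM and 14.3 to 41.5 in S, against 15.7 to 30.8 in M and 10.4 to 17.5 in CK. MERISTEM L1-like models were at 0 in 6 libraries, the 3 of CK among them, and ranged from 0 to 11.5 FPKM in SM, 18.5 in S and 18.1 in M. No model was described as PROTODERMAL FACTOR or FIDDLEHEAD. KCS10, the FIDDLEHEAD of Arabidopsis, was thus not counted here, and its sum was lower with salt (log2 fold change -1.29, adjusted p = 0.0528 from edgeR). Casparian strip proteins and leghemoglobins of roots and nodules stayed at or below 1.31 FPKM in sum. The part of tissue make-up in the results above was not tested.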

How the data were processed

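Leaf RNA of 12 libraries was sequenced, 3 per group. The authors trimmed reads with cutadapt, aligned them with HISAT2 2.0.4 and assembled and quantified transcripts with StringTie, and the genome build is not given in the sources used here. The deposited table holds, for each gene model and library, an estimated count and an FPKM value, the latter scaled by the authors for transcript length and mapped fragments. All columns matched a library. Estimated counts were rounded and models with a mean of at least 1 FPKM over the 12 libraries were kept. Comparisons were fitted in 1 model with edgeR 4.0.16 in R 4.3.3 (TMM scaling, quasi-likelihood F test, no covariate), and p was adjusted over all models by the Benjamini-Hochberg method. Annotation sums were fitted apart in the same way, with p adjusted over all sums tested. The standard error (SE) is the log2 fold change divided by the square root of F. Alternatives were edgeR with other size factors, no filter, a replicate block, 1 library left out, only the 6 libraries compared, DESeq2 1.42.0, which the study used, and limma 3.58.1 on log2(FPKM + 1). The procedure was also run on simulated counts, which do not imitate reads split among copies, and no result given here rests on that run. Whether p-values cover more than the spread between these libraries depends on how separately the replicates were grown.

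The members, classes and lists were chosen with earlier results of these data known. Models named with values were those with an adjusted p below 0.05 (up to 8 per contrast), up to 6 of lowest p past the thresholds per comparison, the most abundant of each class and those nearest the FPKM threshold, and others are given as copies of these. No strand of counting is given, and reads shared by near-identical copies or overlapping genes may be split. No sequences are printed, since no genome of the table's build was used.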

Additional observations from a re-analysis of the deposited data

How the results depend on the processing

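Members with an adjusted p below 0.05 in the salt contrast numbered 11, against 31 with DESeq2, 24 with limma on log2(FPKM + 1), 6 with no filter on low values, 10 with other size factors, and 6 (without CK replicate 3) to 12 (without S replicate 2) with 1 library left out. They were 7 without M replicate 2 and 7 without SM replicate 1. In S vs CK the 2 became 20 with DESeq2, 7 with limma, 0 with no filter, 0 with only the 6 libraries, and 0 to 5 with 1 library left out (0 without CK replicate 2, CK replicate 3 or S replicate 1, 1 without S replicate 3, 5 without S replicate 2). The count of 0 became 5 with DESeq2 in M vs CK, 13 with DESeq2 and 3 with limma in SM vs CK (0 to 1 with 1 library left out, 1 without SM replicate 2), 2 with DESeq2 in SM vs S and 2 with DESeq2 in the interaction. Past the thresholds, the 6 members of SM vs S became 7 to 14 with 1 library left out (11 without S replicate 3, 14 without S replicate 2), and the 9 of the interaction 14 with limma and 8 to 15 with 1 library left out (15 without S replicate 2 or S replicate 3). The 10 sums called in the salt contrast ranged over 7 to 10. The log2 fold change of HOTHEAD MS.gene020251, 0.16 in the salt contrast, was -0.01 without CK replicate 1, -0.02 without CK replicate 3, -0.15 without S replicate 3 and -0.03 without SM replicate 2, in a range of -0.15 to 0.62 with 1 library left out. Beyond the shares given above for DESeq2 and limma, the share of all models called in each setting is not given, the replicate block below included. These counts of members therefore cannot be set against all models. In SM vs CK, DESeq2 called 7.53% of all models it adjusted and edgeR 0.342%. The cause of these changes was not tested. Of 679 settings of the 47 named pairs of model and comparison, 644 kept direction and side of the threshold. Most of these pairs had no adjusted p below 0.05 to begin with, so staying uncalled counted as kept. How often a call held is given above for most of the called models.

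With the replicate number as a block, 7 members were called in the salt contrast and 0 in S vs CK. Same-numbered libraries of different groups had correlations of deviations of -0.0654 to 0.0266, and the nearest library had the same number for 3 of 12, so the numbers were not taken to pair the samples.

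With 3 libraries per group, wide spreads between replicates limit the comparisons of 2 groups.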
